A study of Mus musculus with 16 samples.

Results

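The microRNAs (miRNAs) of extracellular vesicles (EVs) prepared from medium of RAW264.7 cells, a tumour-derived macrophage line of a male BALB/c mouse, were compared between 2 cultures. RAW Con A EVs came from medium of cells kept for 24 h with concanavalin A (Con A), a plant lectin that binds sugars on cell surface proteins, at 25 µg/mL. RAW saline EVs came from cells kept for 24 h with saline. Both used EV-free medium, a 0.2 µm filter and pelleting at 175000 g for 4 h, done a second time after a wash. Every miRNA row of the deposited table was taken, and of its 941 mature miRNA names 498 had a read in at least 1 of the 2 libraries, 398 of them in RAW Con A EVs and 419 in RAW saline EVs. Each kind of EV was sequenced as 1 library, with 134884 miRNA reads for RAW Con A EVs and 114791 for RAW saline EVs. The comparison between the EVs therefore has no replicate check and no p-value, and it describes 1 preparation of each kind from 1 cell line.

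Of the 16 samples of the series, 12 were libraries of RAW264.7 cells in 4 groups of 3. The groups had received RAW Con A EVs, serum Con A EVs, RAW saline EVs or PBS for 8 h, the EVs at 6e9 particles per mL, and all 4 groups then received Con A for 16 h. The PBS cells are thus not untreated, and no library of the cells that shed the EVs was analysed here. The remaining 4 libraries were the 2 of RAW EVs and 2 of EVs from serum of female BALB/c mice aged 8 to 9 weeks, taken 9 h after Con A at 15 mg/kg or from mice given saline. The study asked how EVs from macrophages bear on Con A hepatitis, and the EV libraries show what such vesicles carry.

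A miRNA is a short RNA cut from a hairpin precursor, and it guides Argonaute proteins to messenger RNAs through its seed, bases 2 to 8 from the 5′ end. Each hairpin has a 5p and a 3p arm, of which the arm loaded into Argonaute, the guide, usually far outnumbers the other, the passenger. EVs form by budding from endosomes or from the plasma membrane and carry a sample of the miRNAs of the cell that can differ from the cell's own mix. In macrophages, miR-155, miR-146a, miR-21a and miR-9 respond to inflammatory signals, and let-7 is among the most abundant families.

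The sequences that the results turn on were read from RefSeq, build GRCm38.p6, which held 121 of the 134 miRNAs compared below. The let-7 family is shown whole, because its members went apart between the libraries although their seeds are alike. Capitals mark the seed and bases 11 and 12, and substitutions are given against let-7a-5p, counted from its 5′ end.
let-7c-5p: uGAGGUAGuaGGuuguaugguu
let-7b-5p: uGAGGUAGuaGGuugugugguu
let-7a-5p: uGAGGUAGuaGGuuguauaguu
let-7e-5p: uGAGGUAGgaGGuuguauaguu
let-7d-5p: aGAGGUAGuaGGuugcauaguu
miR-98-5p: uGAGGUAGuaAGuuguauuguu
let-7f-5p: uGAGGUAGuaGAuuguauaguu
let-7g-5p: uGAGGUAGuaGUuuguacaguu
let-7i-5p: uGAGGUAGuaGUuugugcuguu
let-7j: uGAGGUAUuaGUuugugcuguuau
let-7c-5p differs from let-7a-5p by A19G alone, and let-7b-5p by A17G and A19G. let-7f-5p differs by G12A alone, let-7g-5p by G12U and U18C, let-7i-5p by G12U, A17G, U18C and A19U, and miR-98-5p by G11A and A19U. let-7j has the substitutions of let-7i-5p and G8U, a base inside the seed.

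Levels are given as CPM, the read count of a miRNA scaled to a fixed total of miRNA reads in each library, in EVs by the plain total and in cells with TMM factors. A further set of sequences is shown for its large ratios of CPM, first those higher and then those lower in RAW Con A EVs, with the seed in capitals.
miR-184-3p: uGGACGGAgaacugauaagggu
miR-148a-3p: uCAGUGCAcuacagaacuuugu
miR-192-5p: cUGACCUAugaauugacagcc
miR-155-5p: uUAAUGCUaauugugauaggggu
miR-412-5p: uGGUCGACcagcuggaaaguaau
miR-365-2-5p: aGGGACUUucaggggcagcugug
miR-139-3p: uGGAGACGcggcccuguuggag
miR-25-5p: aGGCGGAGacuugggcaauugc
miR-130b-5p: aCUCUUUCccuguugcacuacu
miR-128-1-5p: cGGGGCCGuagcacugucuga
None of these 10 shares its seed with another of the 10. The 5 lower ones lie on the arm usually taken as the passenger, although in PBS cells miR-130b-5p outnumbered miR-130b-3p, at 1218 against 165 CPM.

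The 2 EV libraries held different mixes. A miRNA was compared when it had at least 50 reads over both. Among the 134 such miRNAs, which held 98.9% of the reads of RAW Con A EVs and 98.7% of those of RAW saline EVs, 32 were at least 2-fold higher in RAW Con A EVs (23.9%) and 39 at least 2-fold lower (29.1%), or 53.0% in either direction. The higher ones held 57.5% of the reads in RAW Con A EVs and 8.56% in RAW saline EVs. The lower ones held 15.7% in RAW Con A EVs and 65.6% in RAW saline EVs. In all, 53.6% of the reads would have to change miRNA for 1 library to match the other. Among pairs of replicate cell libraries, compared by the same rule, 0 to 2 of 141 to 171 miRNAs differed by 2-fold, at most 1.27%, but such a spread was not measured for EVs.

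The most abundant miRNA was miR-122-5p in RAW Con A EVs, at 20.8% of the reads, and let-7i-5p in RAW saline EVs, at 24.3%. After miR-122-5p the leading miRNAs in RAW Con A EVs were let-7c-5p, miR-99a-5p, miR-148a-3p, miR-3535 and let-7f-5p. In RAW saline EVs let-7i-5p was followed by let-7f-5p, miR-21a-5p, miR-99a-5p, let-7g-5p and miR-148a-3p. Of the 10 most abundant in each library 7 were shared. Across the 134 compared miRNAs the levels had a Spearman rho of 0.73, a description of miRNAs within these libraries. A total of 33 miRNAs made up 90% of the reads in RAW Con A EVs and 37 in RAW saline EVs, so neither library rested on a single miRNA.

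**Figure D1:**
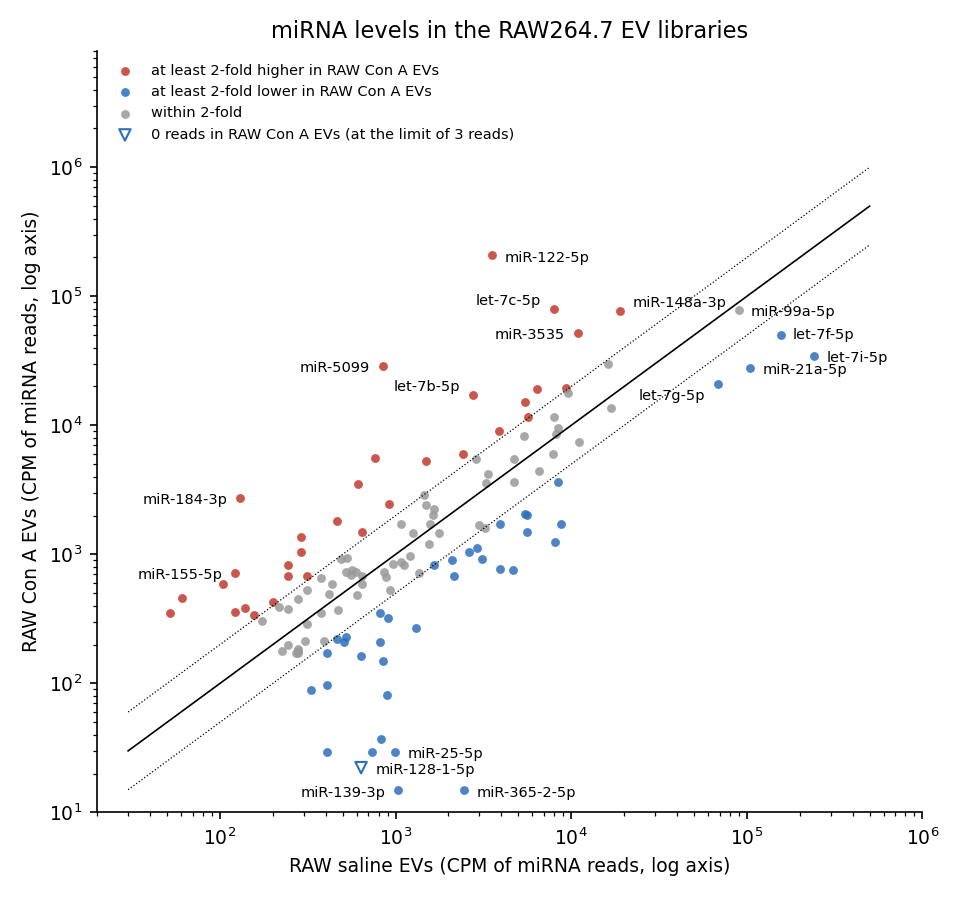
Level of each of the 134 compared miRNAs in RAW Con A EVs (vertical) against RAW saline EVs (horizontal), in CPM on log axes, with 1 library each. The solid line marks equal levels and the dotted lines a 2-fold difference, and 32 miRNAs lie above and 39 below the dotted band.

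The median log2 ratio was −0.16, with quartiles of −1.21 and 0.93, and the exact 95% interval of the ratio of 2 Poisson counts, which covers counting error only, excluded 1 for 103 of the 134 (76.9%), including all 71 past 2-fold. The division into higher and lower depends on the scaling, because a few abundant miRNAs fill each library. It was 42 higher and 33 lower with median-of-ratios factors, and 24 and 46 when let-7i-5p was left out of the totals. The median-of-ratios factors came out as 1 for both libraries, so that setting compared unscaled counts. The division was 47 and 27 when the liver miRNAs below were left out, and 34 and 21 of 110 over miRNAs with at least 100 CPM in PBS cells. These scalings moved all log2 ratios by −0.35 to 0.46, so a ratio whose sign changes under such a shift has no settled direction. Just inside the 2-fold limit lay miR-25-3p at a ratio of 2.04 and miR-139-5p at 0.4998, and just outside lay miR-140-3p at 1.998 and miR-101a-3p at 0.5005.

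Liver miRNAs made up the largest gain among the 26 lists examined. The 6 listed liver miRNAs summed to 288826 CPM in RAW Con A EVs and 23312 CPM in RAW saline EVs, or 28.9% against 2.33% of the reads. Of those compared 3 of 3 were higher, where 23.9% of all were. miR-122-5p, which makes up most of the miRNA of hepatocytes and controls lipid metabolism there, had 28061 reads (208038 CPM) in RAW Con A EVs and 405 reads (3528 CPM) in RAW saline EVs, a ratio of 59.0 (interval 53.5 to 65.2). miR-148a-3p, which is abundant in liver and represses the DNA methyltransferase Dnmt1, had 77074 CPM in RAW Con A EVs and 19078 CPM in RAW saline EVs, a ratio of 4.04 (3.86 to 4.23). miR-192-5p, a miRNA of liver, kidney and gut, had 3484 CPM in RAW Con A EVs and 610 CPM in RAW saline EVs, a ratio of 5.71 (4.44 to 7.45). miR-194-5p, encoded in clusters with miR-192 or miR-215, had 31 reads in RAW Con A EVs and 11 in RAW saline EVs, too few to be compared.

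The same miRNAs were scarce in the macrophages. PBS cells had 8.70, 22.7 and 25.2 CPM of miR-122-5p, and the liver list summed to 1075 to 1437 CPM in these 3 libraries. miR-148a-3p stood at 17.6 ± 8.24 CPM in PBS cells (SD, n = 3), while miR-192-5p, at 935 ± 146 CPM, is one that the cells themselves hold. The liver miRNAs did not keep a fixed proportion to each other. miR-122-5p stood at 2.70 times miR-148a-3p in RAW Con A EVs and at 0.185 times in RAW saline EVs, against 0.920 in serum Con A EVs and 0.829 in serum saline EVs. It stood at 59.7 times miR-192-5p in RAW Con A EVs and at 5.79 times in RAW saline EVs, against 11.4 in serum Con A EVs and 5.80 in serum saline EVs. Whether the cells, the medium or another library was the source of the reads of miR-122-5p, miR-148a-3p and the miRNAs below that the cells lack was not tested.

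Of the compared miRNAs 19 had a mean under 20 CPM in PBS cells. They held 29.8% of the reads in RAW Con A EVs and 3.38% in RAW saline EVs, most of it miR-122-5p and miR-148a-3p in both. Of these 19, 11 had 0 reads in all 3 PBS libraries, which allows up to 3.60 CPM over the group. Those past 2-fold among the 11 were miR-412-5p, miR-493-5p, miR-409-3p and miR-381-3p, all higher in RAW Con A EVs and all from the imprinted Dlk1-Dio3 locus on chromosome 12, which is active mainly in embryo and brain. miR-412-5p had 62 reads in RAW Con A EVs and 7 in RAW saline EVs, a ratio of 7.54 (3.45 to 19.5), and miR-493-5p had 47 and 6, a ratio of 6.67 (2.84 to 19.1). Both reached the minimum of 50 reads through RAW Con A EVs, where they are high. miR-409-3p had 91 reads in RAW Con A EVs and 28 in RAW saline EVs, a ratio of 2.77 (1.79 to 4.39). The list of Dlk1-Dio3 miRNAs, which holds miR-409-3p but not the other 3, summed to 3084 CPM in RAW Con A EVs and 1533 CPM in RAW saline EVs, with 0 reads in PBS cells. Of those compared 1 of 4 was past 2-fold, where 53.0% of all were.

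**Figure D2:**
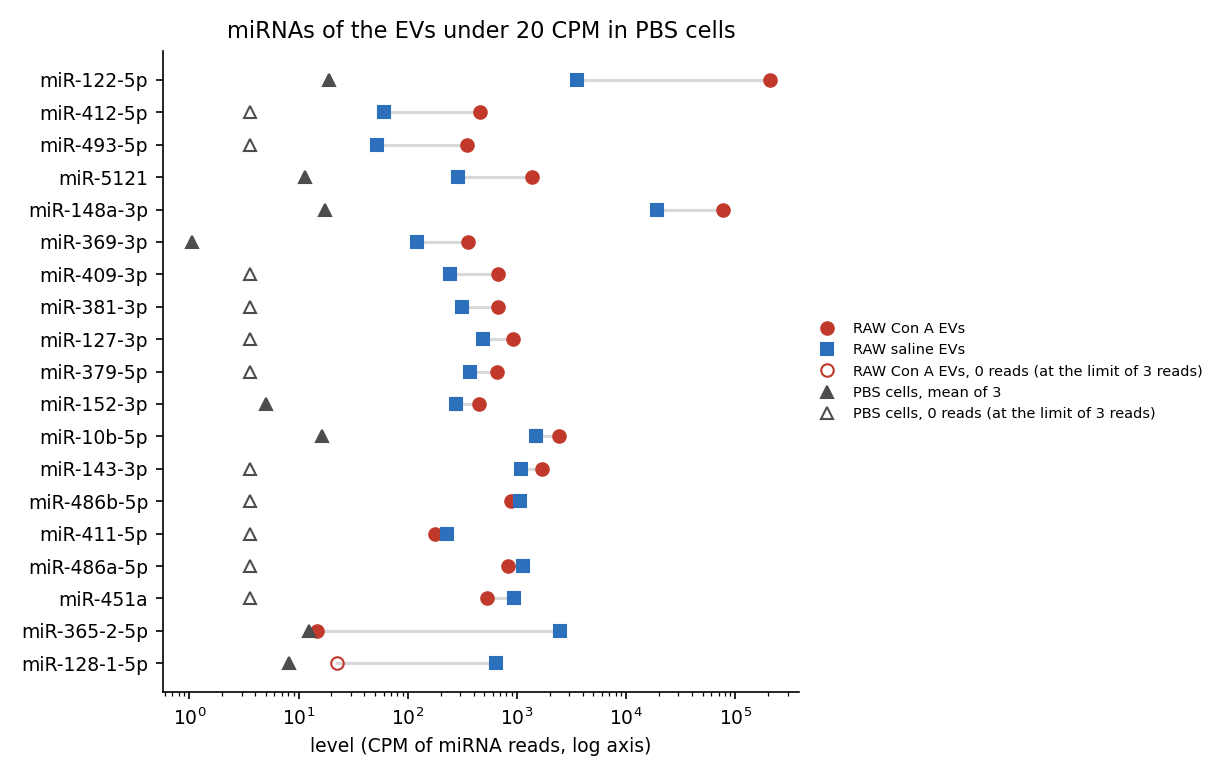
Level in CPM (log axis) of the 19 compared miRNAs with a mean under 20 CPM in PBS cells, in RAW Con A EVs (circles), RAW saline EVs (squares, 1 library each) and PBS cells (triangles, mean of 3), ordered by the EV ratio. Open symbols mark 0 reads and stand at the limit of 3 reads, and every one of the 19 but miR-365-2-5p and miR-128-1-5p lay well above PBS cells in both EV libraries.

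Markers of red cells did not share these ratios. The erythrocyte miRNAs, of which miR-451a is made without Dicer in red cells, summed to 2365 CPM in RAW Con A EVs and 3519 CPM in RAW saline EVs. Of those compared 0 of 3 were past 2-fold, where 53.0% of all were. Their median log2 ratio of −0.44 becomes 0.02 without the liver list in the totals. miR-451a had 534 CPM in RAW Con A EVs and 932 CPM in RAW saline EVs, a ratio of 0.573 (0.419 to 0.779). miR-486a-5p had 830 CPM in RAW Con A EVs and 1124 CPM in RAW saline EVs, a ratio of 0.739 (0.568 to 0.959), and its reads are shared with the near-identical miR-486b-5p. In PBS cells both miR-451a and miR-486a-5p had 0 reads, so each stood far above these cells in either EV library. miR-126a-3p, a miRNA of endothelium and platelets, had 4211 CPM in RAW Con A EVs and 3363 CPM in RAW saline EVs, a ratio of 1.25 (1.10 to 1.43), and 592 ± 18.8 CPM in PBS cells. The smooth muscle miRNA miR-143-3p had 1705 CPM in RAW Con A EVs and 1080 CPM in RAW saline EVs, a ratio of 1.58 (1.26 to 1.98), with 0 reads in PBS cells.

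Most remaining marker lists had few reads. The lymphocyte miRNAs had 27 reads in RAW Con A EVs and 40 in RAW saline EVs, the muscle miRNAs 45 and 22, and the epithelial and islet miRNAs 19 and 11. No member of these 3 lists reached 50 reads. The stromal miRNAs had 682 reads in RAW Con A EVs and 358 in RAW saline EVs. The 4 of them compared, miR-143-3p among them, had log2 ratios of 0.63 to 0.85, with 0 past 2-fold, where 53.0% of all were.

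The let-7 family, which represses growth genes such as Hmga2, Ras and Lin28 and is abundant in differentiated cells, split in 2. Its 10 members shown above held 22.9% of the reads in RAW Con A EVs and 50.1% in RAW saline EVs, a ratio of 0.457. The 5 members with G at both base 11 and base 12 held 12.1% of the reads in RAW Con A EVs and 2.37% in RAW saline EVs, a ratio of 5.11. The 5 with another base at 11 or 12 held 10.8% in RAW Con A EVs and 47.7% in RAW saline EVs, a ratio of 0.227. The grouping by these bases was chosen after the values were seen, and no test was made of it.

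Within the first group let-7c-5p, encoded on chromosomes 15 and 16, had 80024 CPM in RAW Con A EVs and 7945 CPM in RAW saline EVs, a ratio of 10.1 (9.41 to 10.8). let-7b-5p had 17200 CPM in RAW Con A EVs and 2744 CPM in RAW saline EVs, a ratio of 6.27 (5.57 to 7.07), and let-7a-5p 19572 and 9278 CPM, a ratio of 2.11 (1.96 to 2.27). let-7d-5p and let-7e-5p, at ratios of 1.08 (0.946 to 1.25) and 1.34 (0.932 to 1.96), did not differ beyond counting error. In the second group let-7i-5p, on chromosome 10, had 34518 CPM in RAW Con A EVs and 242571 CPM in RAW saline EVs, and was 7.03-fold lower. let-7f-5p had 50132 CPM in RAW Con A EVs and 155605 CPM in RAW saline EVs, a ratio of 0.322 (0.313 to 0.331), although G12A is its only difference from let-7a-5p. let-7g-5p stood at a ratio of 0.307 (0.294 to 0.321), let-7j at 0.197 (0.170 to 0.228) and miR-98-5p at 0.426 (0.339 to 0.531). Reads of let-7j cannot be well told from those of let-7i-5p, and the counting rule for near-identical members is not stated in the sources.

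Set beside the other libraries, both EV mixes stood outside the range of the cells. let-7a, b, c, d and e made up 52.8% of the let-7 reads in RAW Con A EVs and 4.72% in RAW saline EVs. In cells given RAW Con A EVs they made up 19.5 to 20.3% and in cells given RAW saline EVs 19.6 to 21.4%, with 20.6 to 21.3% in PBS cells. Serum Con A EVs had 28.5% and serum saline EVs 13.2%, in a comparison where 4.03% of 124 miRNAs were at least 2-fold higher and 81.5% lower. Among the 8 groups RAW Con A EVs had the highest share and RAW saline EVs the lowest, and the cell groups lay between. The grouping was chosen after the values of the RAW EV libraries were seen, so a wide gap between these libraries was built in. let-7c-5p in RAW Con A EVs stood at 4.24 times its level in PBS cells and in RAW saline EVs at 0.421 times, while let-7i-5p stood at 0.507 and 3.57 times.

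**Figure D3:**
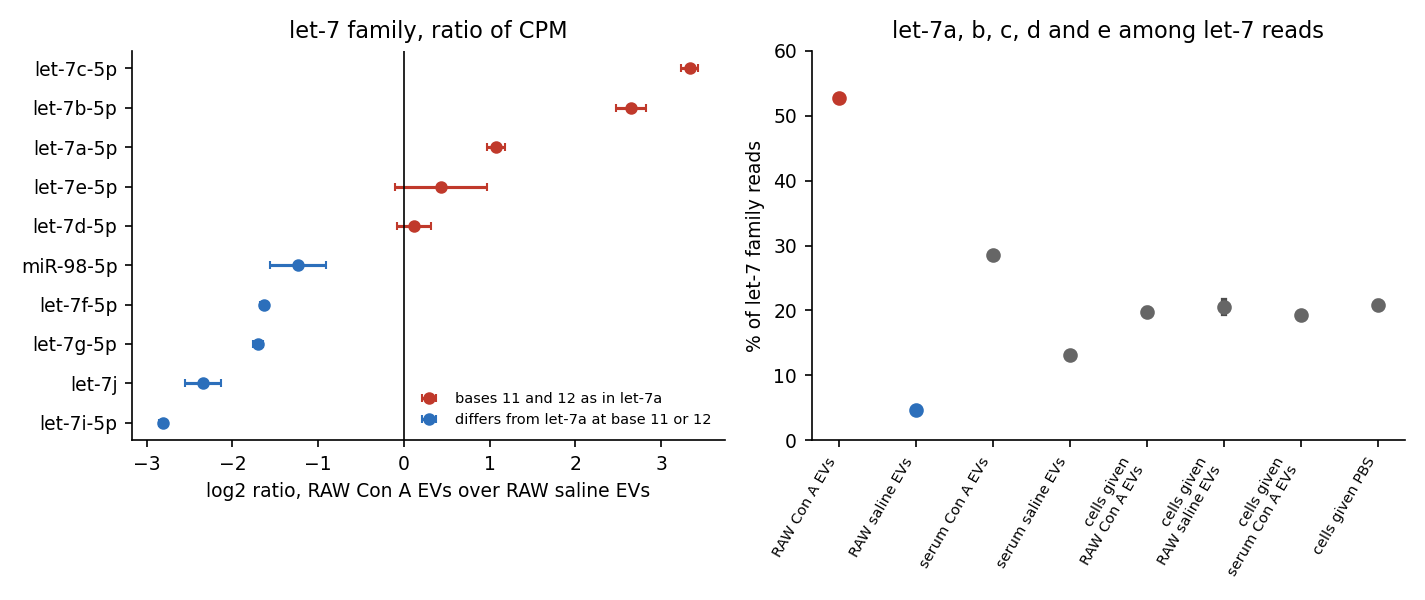
Left, log2 ratio of CPM in RAW Con A EVs over RAW saline EVs for the 10 let-7 family members, with exact 95% counting intervals. Right, share of let-7 family reads from let-7a, b, c, d and e in each EV library (1 library each) and each cell group (mean of 3, bar from lowest to highest), with 52.8% in RAW Con A EVs and 4.72% in RAW saline EVs. This grouping was chosen after the values were seen.

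Of the inflammation-induced macrophage miRNAs 5 were compared, 1 higher and 2 lower, near the 23.9% and 29.1% of all, and their sum was 49583 CPM in RAW Con A EVs and 122954 CPM in RAW saline EVs. miR-155-5p, which Toll-like receptor signals induce and which represses Socs1, had 97 reads (719 CPM) in RAW Con A EVs and 14 reads (122 CPM) in RAW saline EVs, a ratio of 5.90 (3.35 to 11.2). It stood at 0.693 times its PBS cell level in RAW Con A EVs and at 0.117 times in RAW saline EVs, so it was below the cells in both. miR-21a-5p, which represses Pdcd4 and was the leading miRNA of the cells, had 27928 CPM in RAW Con A EVs and 104398 CPM in RAW saline EVs, a ratio of 0.268 (0.258 to 0.278). miR-9-5p, a repressor of Nfkb1, had 675 CPM in RAW Con A EVs and 2160 CPM in RAW saline EVs, a ratio of 0.312 (0.243 to 0.399).

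The miR-146 pair, which restrains Irak1 and Traf6, differed little. miR-146a-5p had 11521 CPM in RAW Con A EVs and 7962 CPM in RAW saline EVs, a ratio of 1.45 (1.33 to 1.57), and miR-146b-5p had 8585 and 8154 CPM, a ratio of 1.05 (0.965 to 1.15). Both arms of miR-142a, a marker of blood cells, were lower, with 12 reads of miR-142a-3p in RAW Con A EVs and 38 in RAW saline EVs, a ratio of 0.269 (0.128 to 0.525). PBS cells had 2313 ± 143 CPM of miR-142a-3p, which stood at 0.0385 times that level in RAW Con A EVs and at 0.143 times in RAW saline EVs. The myeloid miR-223-3p had 10 reads in RAW Con A EVs and 3 in RAW saline EVs and was low in PBS cells too, at 29.0 ± 5.79 CPM. The myeloid and blood cell list summed to 386 CPM in RAW Con A EVs and 958 CPM in RAW saline EVs, against 3051 to 3582 CPM in PBS cells. The inflammation-induced list summed to 282796 to 298415 CPM in PBS cells, most of it miR-21a-5p, at a mean of 263146 CPM. The sums of both lists were thus lower in either EV library than in these cells. The listed miR-146b-5p went the other way, as its mean of 4337 CPM in PBS cells was below its level in either EV library.

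The miR-23, miR-27 and miR-24 miRNAs, which come from a cluster on chromosome 8 and one on chromosome 13, had 4 of 6 compared higher in RAW Con A EVs and 1 lower, where 23.9% and 29.1% of all were, and a median log2 ratio of 1.25 against −0.16 over all. miR-27b-3p, which acts on lipid metabolism genes, had 19150 CPM in RAW Con A EVs and 6412 CPM in RAW saline EVs, a ratio of 2.99 (2.75 to 3.25). miR-24-3p had 8978 CPM in RAW Con A EVs and 3903 CPM in RAW saline EVs, a ratio of 2.30 (2.06 to 2.57). miR-23a-3p stood at a ratio of 3.64 (2.47 to 5.49) and miR-27a-3p at 2.47 (2.15 to 2.83). The lower member was the passenger miR-27a-5p, at 0.176 (0.103 to 0.286).

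Of the listed miR-99, miR-100 and miR-125 miRNAs 0 were higher and 4 lower of 7 compared, where 23.9% and 29.1% of all were, with a median log2 ratio of −1.05. The 4 are both arms of the miR-99b and miR-125a hairpins. miR-125b-2-3p, which was not on the list, was higher, at a ratio of 2.17 (1.24 to 3.99). miR-99a-5p, a repressor of Mtor, was abundant and nearly level, with 78571 CPM in RAW Con A EVs and 89728 CPM in RAW saline EVs, a ratio of 0.876 (0.852 to 0.90). miR-99b-5p, which has the same seed, had 1246 CPM in RAW Con A EVs and 8110 CPM in RAW saline EVs and was 6.51-fold lower. miR-125a-5p, encoded beside miR-99b and let-7e, had 267 CPM in RAW Con A EVs and 1307 CPM in RAW saline EVs and was 4.90-fold lower, while miR-125b-5p stood at a ratio of 1.16 (0.928 to 1.44). let-7e-5p of the same locus, at 1.34, did not share the low ratios of its neighbours.

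Smaller families gave mixed counts, to be read beside the 23.9% higher and 29.1% lower among all compared miRNAs. Of the miR-17-92 guides and their paralogs 1 was higher and 2 were lower of 8 compared, miR-25-3p at a ratio of 2.04 (1.86 to 2.24), miR-17-5p at 0.296 (0.240 to 0.365) and miR-20a-5p at 0.375 (0.324 to 0.433). miR-221-3p, a repressor of Kit and Cdkn1b, had 15154 CPM in RAW Con A EVs and 5453 CPM in RAW saline EVs, a ratio of 2.78 (2.54 to 3.04), while miR-222-3p of the same cluster and seed stood at 0.774 (0.684 to 0.876). miR-7b-5p stood at 0.357 (0.309 to 0.412) and the near-identical miR-7a-5p at 1.14 (1.05 to 1.24). In the miR-30 family 0 were higher and 1 lower of 4, miR-30c-5p at 0.387 (0.318 to 0.471). In the miR-148 and miR-152 family miR-148b-3p was higher as well, at 2.32 (1.77 to 3.07), and miR-152-3p stood at 1.62 (1.04 to 2.57). Of the miR-378 miRNAs, miR-378a-3p, from an intron of Ppargc1b, had 29863 CPM in RAW Con A EVs and 16108 CPM in RAW saline EVs, a ratio of 1.85 (1.75 to 1.96), and miR-378d stood at 3.93 (2.91 to 5.40). miR-103-3p, which acts on Dicer, was 5.10-fold lower, with 771 CPM in RAW Con A EVs and 3929 CPM in RAW saline EVs.

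Of the listed miRNAs that entered the registry late, from deep sequencing, 3 of 3 compared were higher, where 23.9% of all were. Other late entries, not on the list, were lower, miR-1964-3p at a ratio of 0.235 (0.117 to 0.442) and miR-1843a-5p at 0.416 (0.241 to 0.70). miR-5099 had 3880 reads (28765 CPM) in RAW Con A EVs and 97 reads (845 CPM) in RAW saline EVs, a ratio of 34.0 (27.8 to 42.1). miR-3535 had 52304 CPM in RAW Con A EVs and 10898 CPM in RAW saline EVs, a ratio of 4.80 (4.52 to 5.10), and miR-5121 stood at 4.77 (3.28 to 7.14). Against PBS cells miR-3535 stood at 142 times in RAW Con A EVs and at 29.6 times in RAW saline EVs, and miR-5099 at 49.9 and 1.46 times. RefSeq gave miR-3535 a length of 26 bases under the gene name Gm24148 and held no entry for miR-5099. Whether reads under these names came from other RNAs was not tested. Other high ratios belonged to tissue miRNAs and to miR-320-3p. miR-184-3p, abundant in cornea and lens, had 368 reads in RAW Con A EVs and 15 in RAW saline EVs, a ratio of 20.9 (12.5 to 37.7). miR-183-5p, of a cluster active in sense organs, had 79 reads in RAW Con A EVs and 12 in RAW saline EVs, a ratio of 5.60 (3.03 to 11.3). The cells hold both, with 153 ± 12.0 CPM of miR-184-3p and 118 ± 36.3 CPM of miR-183-5p in PBS cells. miR-320-3p, whose hairpin is made without Drosha, had 5560 CPM in RAW Con A EVs and 767 CPM in RAW saline EVs, a ratio of 7.25 (5.81 to 9.15).

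The lowest ratios belonged mostly to passenger arms with few reads in RAW Con A EVs, which reached the minimum of 50 reads through RAW saline EVs. miR-365-2-5p had 2 reads in RAW Con A EVs and 281 in RAW saline EVs, a ratio of 0.00606 (0.00073 to 0.0221). miR-139-3p had 2 reads in RAW Con A EVs and 119 in RAW saline EVs, a ratio of 0.0143 (0.00171 to 0.0528). miR-25-5p had 4 reads in RAW Con A EVs and 114 in RAW saline EVs, a ratio of 0.0299 (0.0080 to 0.0786). These passengers were not among the abundant miRNAs of the cells, where miR-365-2-5p had 12.6 ± 8.85 CPM and miR-139-3p 43.9 ± 5.78 CPM (PBS cells), and in RAW saline EVs they stood at 195 and 23.6 times those levels. miR-130b-5p had 5 reads in RAW Con A EVs and 95 in RAW saline EVs, a ratio of 0.0448 (0.0142 to 0.108), and miR-30b-3p had 4 and 84, a ratio of 0.0405 (0.0108 to 0.108). miR-128-1-5p had 0 reads in RAW Con A EVs and 73 in RAW saline EVs, and was at least 28.6-fold lower, taking 3 reads as the limit that a count of 0 allows. That limit is 22.2 CPM in RAW Con A EVs and 26.1 CPM in RAW saline EVs.

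In 13 hairpins both arms were compared, and in 5 of them the arms had ratios within 2-fold of each other. In 4 hairpins the arms were past 2-fold in opposite directions. For miR-25 the 5p arm made up 0.255% of the hairpin's reads in RAW Con A EVs and 14.9% in RAW saline EVs, for miR-27a 2.42% and 25.8%, and for miR-221 1.06% and 10.4%. For miR-423 the leading arm itself changed, with the 5p arm at 78.1% of the reads in RAW Con A EVs and 21.0% in RAW saline EVs. Both arms were at least 2-fold lower in 4 hairpins, those of miR-125a, miR-139, miR-142a and miR-99b, and both were higher in 0.

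**Figure D4:**
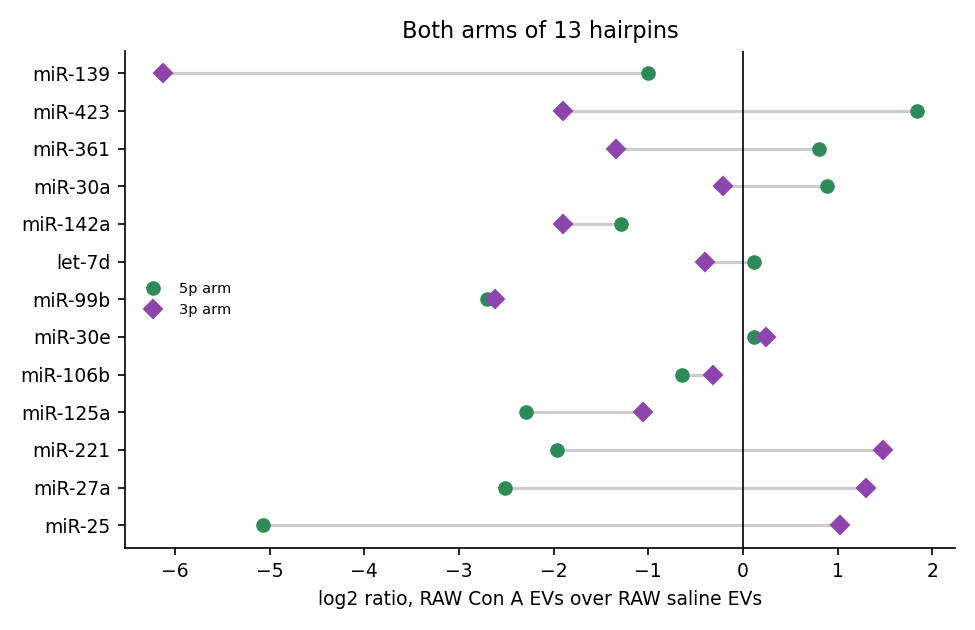
Log2 ratio of CPM in RAW Con A EVs over RAW saline EVs for both arms of the 13 hairpins with at least 50 reads on each arm, circles for the 5p arm and diamonds for the 3p arm. The arms lie within 2-fold of each other in 5 hairpins and past 2-fold on opposite sides of 0 in 4. The 5p arms of miR-25, miR-27a and miR-221 reached the minimum through RAW saline EVs.

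Members with the same seed could differ in direction. Of 17 seeds found in at least 2 compared miRNAs, 4 had members past 2-fold only upwards in RAW Con A EVs, 6 only downwards and 6 none, and the let-7 seed alone had both. Outside let-7, miR-30a-5p stood at a log2 ratio of 0.89 and miR-30c-5p at −1.37. miR-221-3p stood at 1.47 and miR-222-3p at −0.37, which became 0.089 without the liver list in the totals. Simple sequence features are given as a description, with no test. The median GC content was 47.6% among the 29 higher miRNAs with a sequence and 47.8% among the 37 lower ones, beside 47.6% of all 121, and the median length was 22 bases in each. The letters GGAG are a motif linked to EV sorting in human T cells. They were found on the strand of 2 of the 29 higher miRNAs (6.90%) and 5 of the 37 lower ones (13.5%), beside 12 of all 121 (9.92%). GGG was found in 24.1% of the higher and 29.7% of the lower ones, beside 24.0% of all, and can overlap GGAG. A U at the 5′ end was found in 62.1% of the higher and 51.4% of the lower ones, beside 54.5% of all.

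Whether the EV differences were seen in cells that received these EVs was asked with 3 libraries a group, in 1 edgeR quasi-likelihood model of all 12 cell libraries with Benjamini-Hochberg adjustment over 229 miRNAs. The labels do not name separate cultures behind the libraries, and the p-values refer to the spread among libraries, which may be technical. Between cells given RAW Con A EVs and cells given RAW saline EVs 3 miRNAs were higher (1.31%) and 5 lower (2.18%), 3.49% in all, and the groups of 3 did not overlap for 37 (16.2%). Of the 26 tested miRNAs that were higher in RAW Con A EVs 0 rose and 2 fell, and of the 37 that were lower there 2 rose and 1 fell. The median log2 change was −0.07 for the first and 0.05 for the second, beside 0.02 for all tested. Among the 3 that rose, the passenger let-7c-1-3p had the largest change, 1.24, and had 9 reads in RAW Con A EVs and 7 in RAW saline EVs. Rose and fell here refer to cells given RAW saline EVs, not to PBS cells. The 3 that rose had lower means in both of these groups than in PBS cells. After RAW Con A EVs, RAW saline EVs and PBS, let-7c-1-3p had 109, 46.4 and 191 CPM. In the same order miR-27a-5p had 246, 128 and 341 CPM, and miR-130b-5p 1078, 829 and 1218 CPM.

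The 5 called miRNAs that were past 2-fold in the EVs include 4 that went the other way in the cells. miR-27a-5p, lower in RAW Con A EVs, had 274, 242 and 221 CPM in cells given RAW Con A EVs and 111, 141 and 131 CPM in cells given RAW saline EVs, with no overlap, a log2 change of 0.88 (SE 0.17, edgeR adjusted p = 0.00198). miR-130b-5p, also lower in RAW Con A EVs, had 1044, 1151 and 1039 CPM in cells given RAW Con A EVs and 876, 859 and 752 CPM in cells given RAW saline EVs, a change of 0.37 (SE 0.10, edgeR adjusted p = 0.0227). miR-155-5p, higher in RAW Con A EVs, had 1157, 1078 and 1129 CPM in cells given RAW Con A EVs and 1385, 1416 and 1470 CPM in cells given RAW saline EVs, a change of −0.35 (SE 0.08, edgeR adjusted p = 0.0143). miR-22-3p, at 830 CPM in RAW Con A EVs and 244 CPM in RAW saline EVs, fell by 0.33 (SE 0.09, edgeR adjusted p = 0.0425), and miR-142a-3p, lower in RAW Con A EVs, fell by 0.25 (SE 0.07, edgeR adjusted p = 0.0425). Of these calls only that of miR-27a-5p held in every setting and without any 1 library. Mean levels in PBS cells were 1038 CPM for miR-155-5p, 1150 CPM for miR-22-3p and 2313 CPM for miR-142a-3p. miR-155-5p thus had a higher mean in both groups given RAW EVs than in PBS cells.

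The miRNAs with the 3 highest EV ratios did not pass the test in the cells. miR-122-5p had 83.5, 51.9 and 79.1 CPM in cells given RAW Con A EVs and 24.2, 33.1 and 52.5 CPM in cells given RAW saline EVs, and the groups overlapped by a narrow margin. Its log2 change of 0.97 (SE 0.34) is larger than that of miR-27a-5p but did not pass (edgeR adjusted p = 0.154). miR-5099 had 775, 718 and 805 CPM in cells given RAW Con A EVs and 726, 988 and 927 CPM in cells given RAW saline EVs, a change of −0.22 (SE 0.11, edgeR adjusted p = 0.337). miR-184-3p had 125, 151 and 153 CPM in cells given RAW Con A EVs and 82.3, 88.4 and 149 CPM in cells given RAW saline EVs, a change of 0.48 (SE 0.21, edgeR adjusted p = 0.276). Both pairs of groups overlapped. The mean of miR-122-5p in PBS cells was 18.8 CPM, lower than in both groups given RAW EVs. That of miR-184-3p was 153 CPM, higher than in both. These differences from PBS cells were not tested. let-7c-5p, higher in RAW Con A EVs, and let-7i-5p, lower there, did not pass either. let-7c-5p had 18113 ± 507 CPM in cells given RAW Con A EVs and 19080 ± 1139 CPM in cells given RAW saline EVs (SD, n = 3 each), a change of −0.07 (SE 0.06, edgeR adjusted p = 0.543). let-7i-5p had 67659 ± 429 CPM in cells given RAW Con A EVs and 68955 ± 2281 CPM in cells given RAW saline EVs, a change of −0.03 (SE 0.05, edgeR adjusted p = 0.886).

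**Figure D5:**
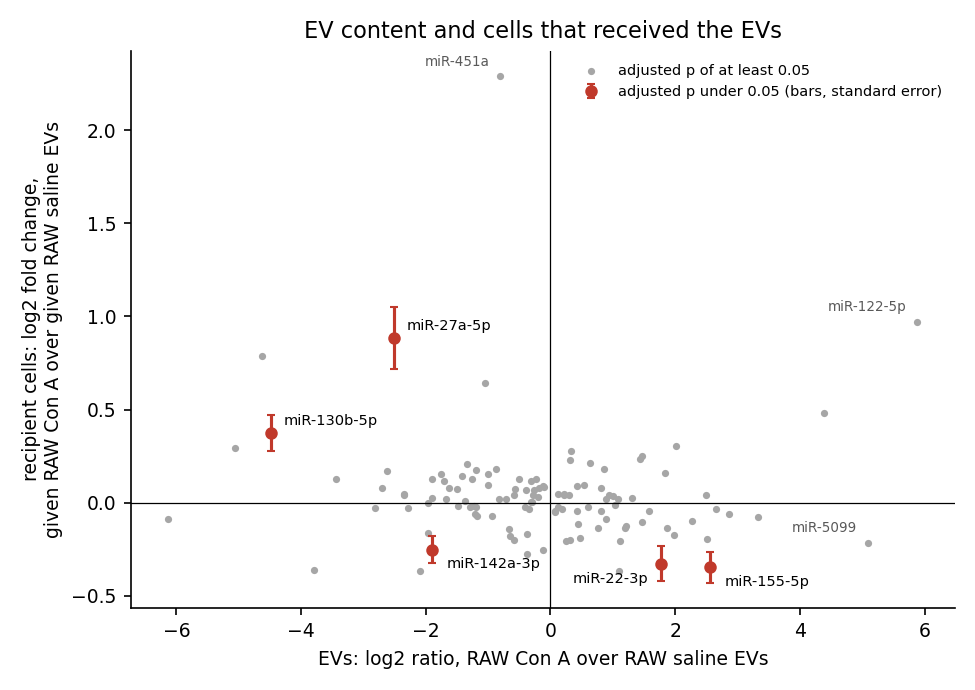
Log2 fold change in cells given RAW Con A EVs over cells given RAW saline EVs (vertical, 3 libraries each) against the log2 ratio of CPM in RAW Con A EVs over RAW saline EVs (horizontal, 1 library each), for miRNAs compared in EVs and tested in cells. The 5 miRNAs with an adjusted p under 0.05 are drawn with standard errors, and 4 of them lie in the quadrants of opposite direction.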

How the data were processed

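Small RNA libraries were sequenced as single reads of 51 bp, per the labels' protocols, and a plant spike-in was added to EV RNA, of which no row was used here. Values are thus shares of miRNA reads, not amounts per vesicle. The authors deposited raw counts of reads per mature miRNA name; no label or header names the aligner, annotation or build (not given in the sources used here). They also deposited normalized signal values, which for 319 miRNAs of the RAW EVs equalled the raw count divided by 16 (RAW Con A) or 13 (RAW saline), as tested on the values. These divisors served as an alternative scaling. edgeR is named, without a version, in the submitters' processing notes. Columns matching no sample numbered 0.

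EV counts were scaled to the miRNA total, and ratios have exact 95% intervals for 2 Poisson counts (SciPy 1.17.1, Python 3.11.15). Cells were tested with edgeR 4.0.16 in R 4.3.3 (filterByExpr, TMM, quasi-likelihood, 2-sided, threshold 0.05), and DESeq2 1.42.0 was an alternative. Cell libraries held 174510 to 403332 miRNA reads. A self-test on simulated data with known changes preceded the cell test. Members, 26 lists and naming rule were chosen with earlier results of these data known. The rule names the 15 highest and 15 lowest ratios, the 10 most abundant miRNAs per library, other arms, a panel, up to 4 members a list and the 5 smallest p in cells. Other names (miR-423, miR-148b-3p, miR-152-3p, miR-381-3p, miR-22-3p, miR-140-3p, miR-101a-3p, miR-125b-2-3p, miR-1964-3p, miR-1843a-5p) were chosen after their values were seen. Deviations of same-numbered cell libraries of the 2 RAW EV groups from their group means were nearly uncorrelated, which cannot exclude a shared culture or day.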

Additional observations from a re-analysis of the deposited data

Results flagged for a closer look

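A set of 9 miRNAs were at least 2-fold higher in RAW Con A EVs than in RAW saline EVs but at least 2-fold lower in serum Con A EVs than in serum saline EVs, in log2 of the CPM ratio. The difference between the contrasts was not tested, since each has 1 library a group. In serum 5 of 124 compared miRNAs were higher (4.03%) and 101 lower (81.5%), with miR-148a-3p and miR-122-5p filling the serum Con A library, so a low ratio was the rule there. The miR-23, miR-27 and miR-24 guides gave 4 of the 9, miR-23a-3p at 1.86 in RAW EVs and −3.91 in serum EVs, miR-27a-3p at 1.30 and −3.60, miR-24-3p at 1.20 and −2.50, and miR-27b-3p at 1.58 and −1.93. let-7a-5p stood at 1.08 in RAW EVs and −1.84 in serum EVs, and let-7b-5p at 2.65 and −1.30. miR-320-3p stood at 2.86 in RAW EVs and −2.65 in serum EVs, miR-25-3p at 1.03 and −3.0, and miR-221-3p at 1.47 and −1.82.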

How the results depend on the processing

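Against 32 higher and 39 lower miRNAs and a median log2 ratio of −0.16 in EVs, a minimum of 200 reads gave 20 and 20 (median 0.094) and no minimum 149 and 185 of 498, since other numbers of miRNAs entered. A minimum of 20 reads gave 43 and 55 of 177. The median was 0.077 with median-of-ratios scaling, −0.51 without let-7i-5p in the totals, −0.27 with reads summed by seed, 0.30 without the liver list and 0.26 over miRNAs with at least 100 CPM in PBS cells, which left 21 lower. The last pair was added after seeing the data. TMM gave 33 and 37, the authors' divisors 31 and 41, and 1.5-fold 47 and 48. Of 400 ratios of named miRNAs over 5 scalings 18 changed sign, for 17 miRNAs, and 0 of them belonged to a miRNA past 2-fold in the values reported. For the 3 higher and 5 lower miRNAs of recipient cells, lower calls numbered 3 by library size alone, 2 with DESeq2 and 1 with 6 libraries, and the cause was not tested. Leaving out 1 cell library gave 1 to 2 higher and 0 to 6 lower. Without library 3 of the cells given RAW Con A EVs there were 1 and 0. Without library 3 of the cells given RAW saline EVs there were 2 and 0, and without library 2 of either cell group 2 and 3. let-7c-1-3p lost its call without library 3 of the cells given RAW Con A EVs (edgeR adjusted p = 0.0945). With the replicate number as a block 3 were higher and 6 lower. Same-numbered libraries had correlations of −0.01, 0.02 and −0.02. These were taken over all tested miRNAs, scarce ones included, and cannot exclude a shared culture or day. At an unadjusted p under 0.05 there were 33. With 1 library per EV preparation, spread between preparations is unknown, and miRNAs under 50 reads were not compared.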
